A study of Mus musculus with 4 samples.

Results

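Dlg1, Dlg3, Dlg4 and Dlg5 encode scaffold proteins of the discs large family, and the measurements below follow their levels and their alternative exons when polypyrimidine tract-binding proteins are depleted. The genes were chosen by symbol, and all 4 were found among 16958 genes named in a single locus in every library. Their splicing was read from 101 cassette exons of 180955 on a fixed list, where a cassette exon is a middle exon with its neighbours on either side, together called a trio. The cells were N2A, a mouse neuroblastoma line, and the 4 libraries of strand-specific poly(A) RNA came from cells given a control hairpin (shControl), the hairpin shptbp1 (Ptbp1 knockdown), the hairpin shptbp2 (Ptbp2 knockdown), or shptbp1 together with shptbp2 (double knockdown). Plasmids were delivered with Lipofectamine over 5 hours, and RNA was taken after 3 days in culture. The shRNAs lower the transcripts without deleting the genes, and the labels do not give the share of cells that took up plasmid. Each group was 1 library, so no difference could be held against a spread between replicates, and the intervals cover counting error at most.

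Discs large proteins carry PDZ domains, an SH3 domain and a guanylate kinase-like domain, and hold receptors, channels and signalling enzymes together beneath the membrane. Dlg4 encodes PSD-95, the main scaffold of the excitatory postsynapse, which anchors NMDA receptors and, through their auxiliary subunits, AMPA receptors. Dlg1 encodes SAP97, which acts in cell polarity and in receptor trafficking, Dlg3 encodes SAP102, a carrier of NMDA receptors in young neurons, and Dlg5 encodes a larger relative that acts at cell junctions. Ptbp1 is the PTB protein of most cells, and Ptbp2 is its relative of developing neurons. PTB proteins are known repressors of a late Dlg4 exon in cells that are not mature neurons, and transcripts that skip this exon are known to be removed by nonsense-mediated decay, which destroys RNA with a stop codon ahead of a later exon junction.

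The Dlg4 exon is 110 nt long, at chr11:69857160-69857269 on the plus strand of mm9, with an intron of 914 nt before it and 508 nt after it. In the annotation (GENCODE vM21, build GRCm38, matched by exon and intron lengths) it is wholly coding in 7 coding transcripts, and 1 annotated transcript joins its neighbours directly. Its length leaves a remainder of 2 on division by 3, so skipping shifts the reading frame. The sequences show that joint, from the GENCODE transcript on GRCm38, first with the exon in capitals between 30 nt of each neighbour, then without it and with the new stop codon in capitals.

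Dlg4 with the 110-nt exon: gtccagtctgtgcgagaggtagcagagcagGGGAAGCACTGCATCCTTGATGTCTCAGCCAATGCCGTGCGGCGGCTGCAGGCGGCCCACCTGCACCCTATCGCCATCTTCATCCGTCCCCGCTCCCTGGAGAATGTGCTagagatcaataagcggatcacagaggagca
Dlg4 without the exon: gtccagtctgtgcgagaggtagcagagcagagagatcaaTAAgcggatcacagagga

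Without the exon, the frame met the stop codon TAA, whose first base is base 10 after the joint, in each of the 7 coding transcripts. This stop lay 80 nt before the last exon junction, which was the only junction after it. The predicted open reading frame was 99 codons shorter, at 625 in place of 724 codons in the transcript of that length.

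Other alternative exons are shown for comparison because their lengths are multiples of 3, so that they add or remove coding sequence without shifting the frame. A coding exon near the 5′ end of Dlg4 starts at chr11:69840425 in mm9 and ends at 1 of 2 5′ splice sites, which makes it 66 or 165 nt long. The capitals mark the 99 nt of the longer version. Dlg1 has a 99-nt exon (chr16:31771843-31771941, plus strand, mm9), 68.7% of whose bases are C or T, and a 36-nt exon (chr16:31854739-31854774, plus strand, mm9). All are coding in GENCODE, from which the letters come.

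Dlg4 66- or 165-nt exon: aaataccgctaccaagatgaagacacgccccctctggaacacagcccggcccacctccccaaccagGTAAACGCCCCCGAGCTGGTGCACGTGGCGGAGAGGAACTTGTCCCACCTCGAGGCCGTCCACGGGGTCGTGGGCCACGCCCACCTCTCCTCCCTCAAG
Dlg1 99-nt exon: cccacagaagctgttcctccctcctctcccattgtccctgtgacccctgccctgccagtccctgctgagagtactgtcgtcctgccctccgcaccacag
Dlg1 36-nt exon: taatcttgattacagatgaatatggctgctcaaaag

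The sequencing gave 127.02 M to 161.55 M reads on middle exons of the fixed list and, with each junction counted once, 58.2 M to 74.3 M junction reads per library. The letter M stands for the prefix mega, and the Ptbp1 knockdown was the shallowest library in both. Ptbp1 was at 37.1% of its control level under Ptbp1 knockdown and 24.6% under double knockdown. Ptbp2 was at 30.8% of control under Ptbp2 knockdown, 216% under Ptbp1 knockdown and 58.4% under double knockdown, so the double knockdown kept more Ptbp2 RNA than the single one (20.6 against 10.8 FPKM). Ptbp3, a further PTB gene, was at 61.6%, 66.5% and 56.9% of its control FPKM under Ptbp1, Ptbp2 and double knockdown. Its FPKM intervals lay apart from control each time, and by exon reads it was at 57.6%, 50.6% and 52.7%. Markers of sympathetic neuroblasts, from which such tumours arise, were present, 8 of 11 at 1 FPKM or more and together 489.9 to 587 FPKM. Summed markers of fibroblasts (at most 1.44 FPKM), oligodendrocytes (at most 0.589), astrocytes (at most 0.0615) and microglia (at most 0.0486) were low in every library, with 1 of 5 astrocyte markers at 0.

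The comparison at the centre of the design asks how splicing depends on each PTB protein and on both. The 110-nt exon of Dlg4 was included in 47.3% of transcripts by junction reads in the control library (95% Wilson interval 42.2 to 52.4). It was included in 70.9% under Ptbp1 knockdown (66.3 to 75.1), in 26.3% under Ptbp2 knockdown (22.0 to 31.0) and in 86.0% under double knockdown (82.5 to 88.8). The order from lowest to highest was thus Ptbp2 knockdown, control, Ptbp1 knockdown and double knockdown, and no neighbours in that order had overlapping intervals. The exon went from mainly skipped to mainly included over that order. These are shares of the RNA present in each library, and transcripts already removed by decay do not enter them.

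The reads behind these shares moved the same way on every side of the exon. The control library had 114 reads across the upstream inclusion junction, 231 across the downstream one and 192 across the skipping junction. The Ptbp1 knockdown had 211, 374 and 120 reads, and the Ptbp2 knockdown had 68, 124 and 269. The double knockdown had 240 and 557 inclusion reads and 65 skipping reads. The upstream junction therefore had fewer reads than the downstream one in all 4 libraries, while the skipping junction was highest where the inclusion junctions were lowest. The inclusion ratio that SpliceTrap estimated for the same trio was 48.7%, 72.2%, 27.3% and 88.2% in the order control, Ptbp1, Ptbp2 and double knockdown, which is the same order of libraries.

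Against control, inclusion was 23.6 percentage points higher under Ptbp1 knockdown (95% Newcombe interval 16.8 to 30.2) and 38.7 points higher under double knockdown (32.5 to 44.5). It was 21.0 points lower under Ptbp2 knockdown, a difference of -21.0 (-27.6 to -14.0), and of -17.1 with the upstream inclusion junction alone, which is short of the limit given next. An exon was counted as different when junction inclusion and the SpliceTrap ratio both differed by at least 20 points in the same direction, with at least 20 junction reads in each library. By this rule the Dlg4 exon was the 1 counted among 78 Dlg exons measured in all 4 libraries, in each of the 3 comparisons with control. Over all cassette exons measured, 0.289% were counted under Ptbp1 knockdown, 0.121% under Ptbp2 knockdown and 0.496% under double knockdown. These comparisons share the control library.

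Between the knockdowns, the Dlg4 exon was again the 1 Dlg exon counted in the double against the Ptbp2 knockdown, with a difference of 59.7 points (53.8 to 64.8) beside a background of 0.467%. It was also the 1 counted between the Ptbp1 and Ptbp2 knockdowns, with a difference of 44.6 points (38.0 to 50.5) beside 0.399%. The double knockdown was 15.1 points above the Ptbp1 knockdown (9.66 to 20.5), which stayed under 20 points, and 0 of the 78 exons were counted there beside a background of 0.2%. Inclusion was thus lower in the library with shptbp2 than in control, and higher in the library with both hairpins than in that with shptbp1 alone. Ptbp1 RNA itself was at 119% of control under Ptbp2 knockdown, and at 36.8 FPKM under double knockdown against 55.4 under Ptbp1 knockdown (intervals apart). The part of Ptbp1 and of Ptbp3 in these differences was not tested.

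**Figure D1:**
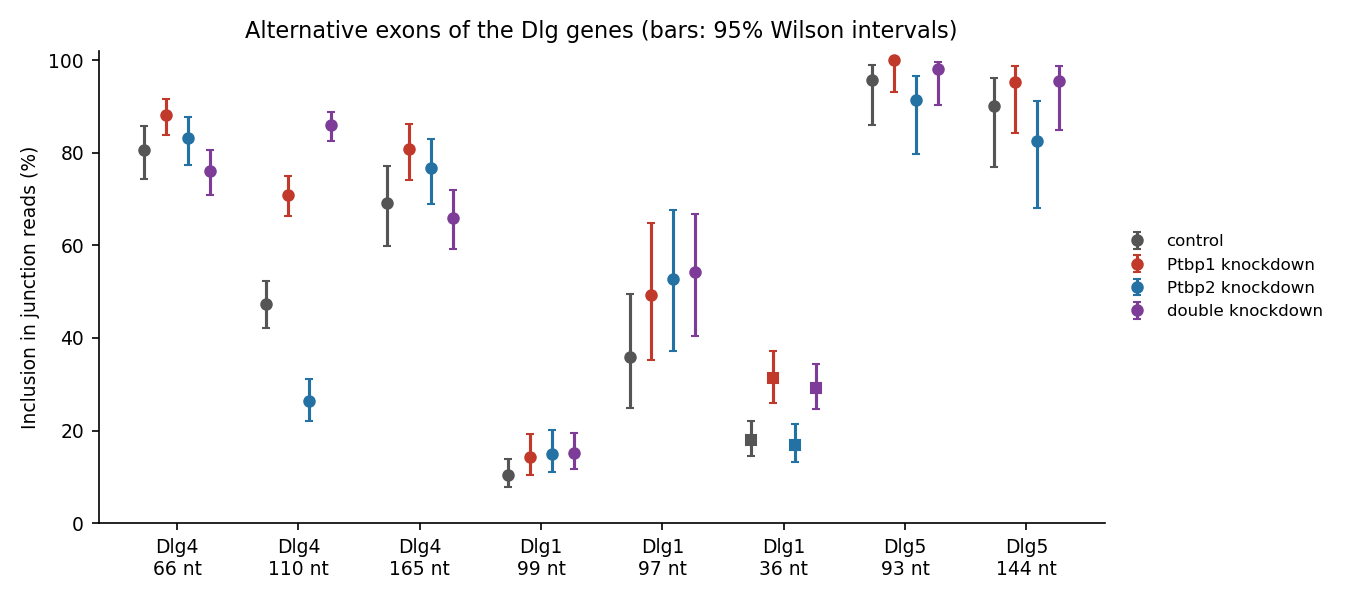
Inclusion in junction reads (%, vertical axis) of 8 alternative exons of Dlg4, Dlg1 and Dlg5, labelled by length, with 1 point per library and 95% Wilson intervals as bars. The Dlg4 110-nt exon runs from 26.3% to 86.0% with no overlap of intervals between libraries, while the squares mark the Dlg1 36-nt exon, which was measured from junctions of neighbouring trios.

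The level of Dlg4 was read in FPKM (fragments per transcript length and library total, rescaled here to be comparable between libraries) and as CPM (reads on the fixed list of exons per M reads, scaled by the median of ratios). Dlg4 stood at 24.5 FPKM in control (95% Cufflinks interval 22.6 to 26.4), 26.9 under Ptbp1 knockdown (25.2 to 28.6), 24.6 under Ptbp2 knockdown (23.3 to 25.9) and 31.6 under double knockdown (29.8 to 33.5). The double knockdown alone lay apart from the other 3 libraries, whose intervals overlapped. In reads on its exons, Dlg4 stood at 94.4 CPM in control, 131 under Ptbp1 knockdown, 94.3 under Ptbp2 knockdown and 131 under double knockdown. By that measure both libraries with depleted Ptbp1 were higher, at 1.39-fold of control each, and the Ptbp2 knockdown equalled control within its Poisson interval (92.7 to 95.9 CPM). A read across a junction counts for both exons it joins, so this interval is too narrow even for counting error. In bulk RNA, fewer cells that express a gene and less of its RNA per cell cannot be told apart.

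To count a gene as different, log2(FPKM + 1) had to differ by 1 or more (2-fold), with 3 FPKM or more in 1 of both libraries and intervals apart. Of the 4 Dlg genes, of which Dlg3 lay under that minimum, 0 were counted in any of the 6 comparisons between libraries. Over all genes measured, 2.09% were counted under Ptbp1 knockdown, 2.53% under Ptbp2 knockdown and 2.22% under double knockdown, each against control. The share was 2.06% for the double against the Ptbp1 knockdown, 2.29% for the double against the Ptbp2 knockdown and 5.99% for the Ptbp1 against the Ptbp2 knockdown. The log2 difference of Dlg4 from control was 0.13, 0.01 and 0.36 by FPKM under Ptbp1, Ptbp2 and double knockdown, and by exon reads it was 0.47 under both Ptbp1 and double knockdown. With a single divisor for all libraries, which moved the median of all genes by -0.17 under Ptbp1 knockdown, the FPKM difference there became -0.04. Intervals that lay apart and higher, as those of Dlg4 did under double knockdown, were found in 39.8% of genes measured in that comparison.

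**Figure D2:**
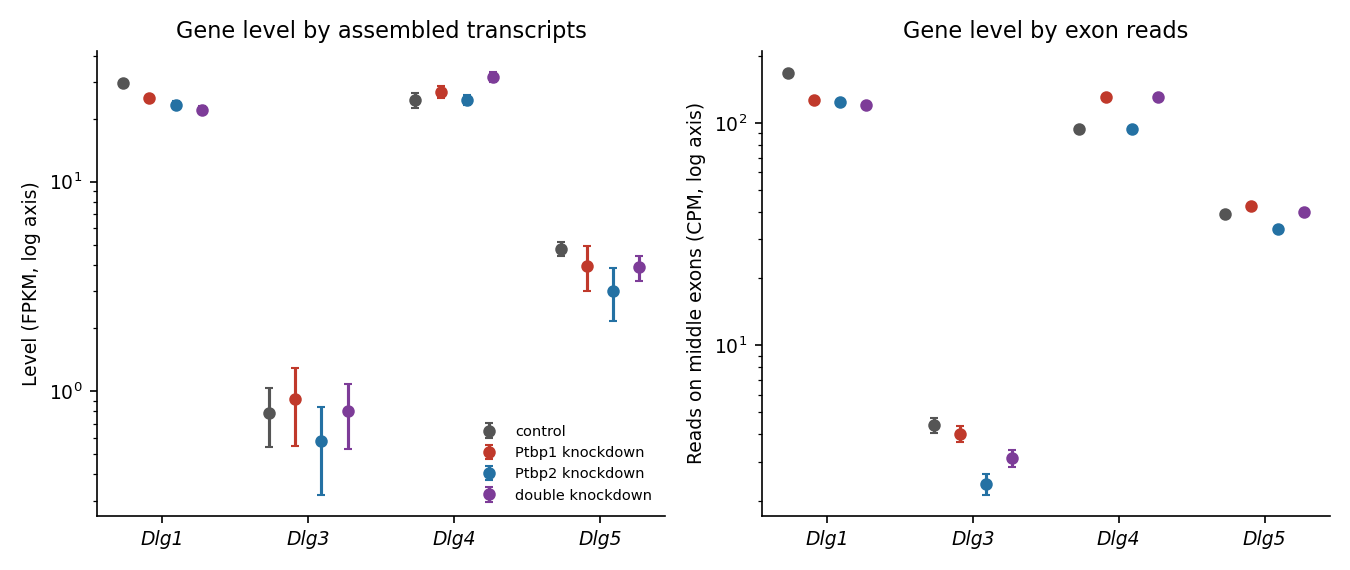
Levels of the 4 Dlg genes by library, in FPKM with Cufflinks 95% intervals (left) and in CPM on middle exons with 95% Poisson intervals (right), both on log axes. The Poisson intervals are too narrow, because a read across a junction counts for both exons it joins. Dlg1 is highest in control in both panels, Dlg4 is highest under double knockdown by FPKM and equally high under Ptbp1 and double knockdown by exon reads, and Dlg3 lies under 1 FPKM in every library.

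Exon by exon, the higher reads of Dlg4 under Ptbp1 and double knockdown were spread along the gene. Leaving out the 110-nt exon, 19 middle exons had at least 50 control reads, and all 19 were above control under Ptbp1 knockdown (median ratio 1.35, range 1.14 to 1.89) and under double knockdown (median 1.36, range 1.09 to 1.69). The 2 overlapping versions of the 66- or 165-nt exon are both among the 19. In the Ptbp2 knockdown 9 were above and 10 below, with a median ratio of 0.998. There, 9 of the first 10 exons from the 5′ end were above control (median 1.09), and 0 of the 9 others from exon 11 on were above (median 0.906), so the ratio fell along the gene. Whether coverage along other transcripts of that library fell in the same way was not tested.

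The 110-nt exon, number 19 in that order, departed from its neighbours in all 3 knockdowns. Its own reads numbered 353 in control, 609 under Ptbp1 knockdown, 199 under Ptbp2 knockdown and 822 under double knockdown. Scaled to CPM, they stood at 1.90, 0.600 and 2.17 times control under Ptbp1, Ptbp2 and double knockdown. The neighbouring exon 18, of 173 nt, stood at 1.35, 0.906 and 1.36 times control in the same order, and exon 20 on its other side, of 92 nt, at 1.38, 0.791 and 1.51. Most reads on the 110-nt exon are those across its inclusion junctions (114 and 231 in control), so this is not a measure separate from inclusion.

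**Figure D3:**
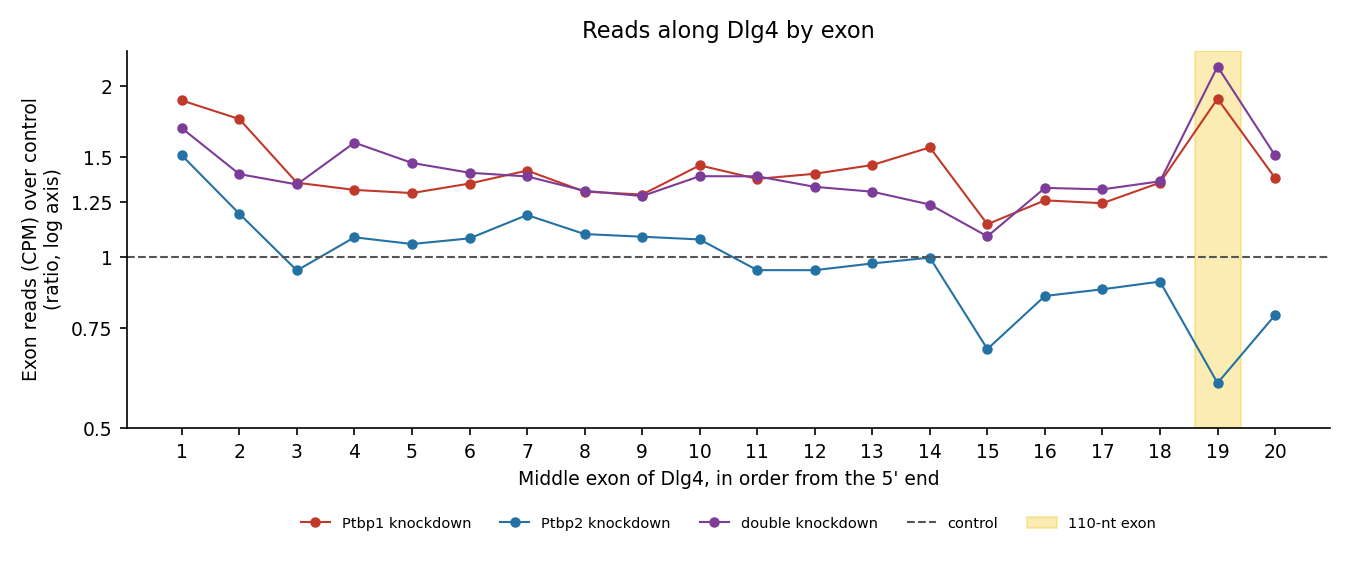
Ratio of reads (CPM) on each middle exon of Dlg4 to control (vertical, log axis) against the order of the exon from the 5′ end (horizontal), with 1 line per knockdown and the 110-nt exon shaded. The Ptbp1 and double knockdowns lie above 1 at every exon, the Ptbp2 knockdown falls from 1.51 at the first exon to 0.600 at the 110-nt exon, and the 110-nt exon stands at 1.90 and 2.17 under Ptbp1 and double knockdown. Reads on the 110-nt exon are mostly those across its inclusion junctions.

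Setting level beside inclusion, the libraries with higher inclusion had the higher exon reads, but the Ptbp2 knockdown and control, 21.0 points apart in inclusion, had nearly the same level. With 4 libraries no correlation was computed. As a description, the CPM on the other Dlg4 exons was multiplied by the share of transcripts with and without the 110-nt exon. The part with the exon came to 43.6 CPM in control, 89.6 under Ptbp1 knockdown, 24.4 under Ptbp2 knockdown and 108 under double knockdown. The part without it came to 48.5, 36.8, 68.5 and 17.7 CPM in that order. The frame-keeping part was thus highest under double knockdown and the frame-shifting part highest under Ptbp2 knockdown, while their sum stood at 92.0, 126, 92.9 and 126 CPM. The same product with gene FPKM gave 11.6, 19.1, 6.48 and 27.2 FPKM with the exon and 12.9, 7.82, 18.2 and 4.43 FPKM without it.

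The deposited assembly split Dlg4 differently. Assembled transcripts with the exon summed to 14.2 FPKM in control, 26.9 under Ptbp1 knockdown, 14.9 under Ptbp2 knockdown and 28.3 under double knockdown. Transcripts that skip it summed to 6.49 FPKM in control and 5.50 under Ptbp2 knockdown, and none was assembled in the other 2 libraries, although 120 and 65 skipping reads were present there. Transcripts that end before the exon took a further 3.81 FPKM in control, 4.19 under Ptbp2 knockdown and 3.35 under double knockdown. Between control and the Ptbp2 knockdown, the assembled transcripts therefore differ little where the junction reads put the exon 21.0 points lower.

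**Figure D4:**
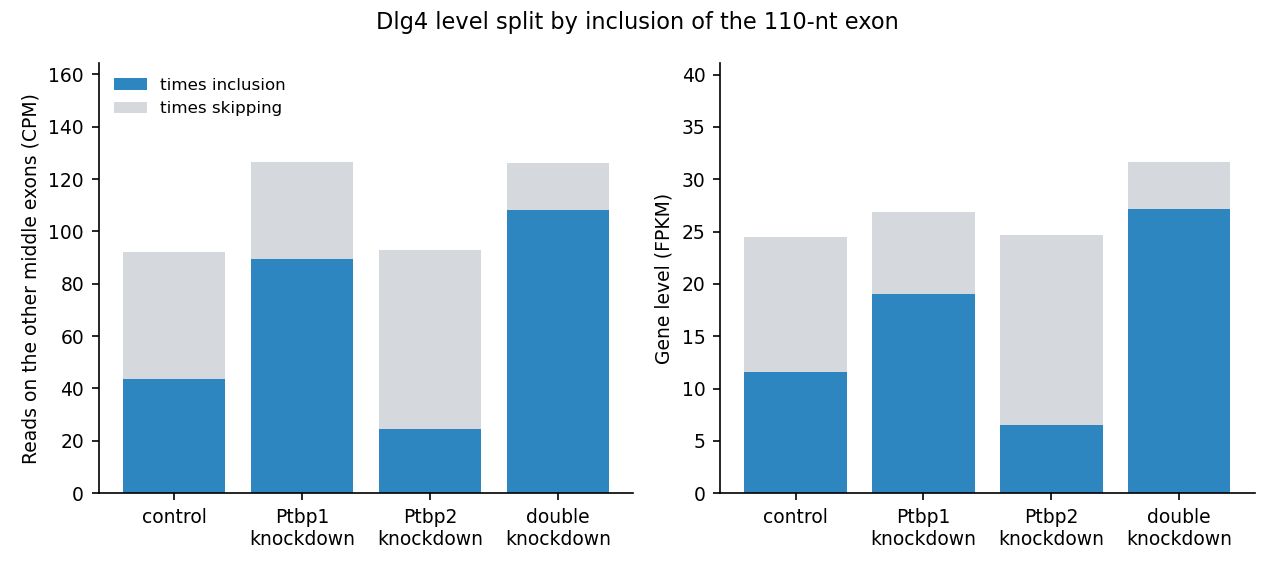
Dlg4 level in each library (bars from 0; CPM on the other middle exons at left, gene FPKM at right) split by multiplying it with inclusion (blue) and skipping (grey) of the 110-nt exon. The blue part is smallest under Ptbp2 knockdown (24.4 CPM) and largest under double knockdown (108 CPM), and the grey part runs from 17.7 to 68.5 CPM.

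At the 5′ end of Dlg4, the exon of 66 or 165 nt differed less and in another order. In the trio of the 66-nt version, junction inclusion was 80.6% in control (74.4 to 85.7) and 88.1% under Ptbp1 knockdown (83.7 to 91.5). It was 83.1% under Ptbp2 knockdown (77.4 to 87.7) and 76.0% under double knockdown (70.8 to 80.5). In the trio of the 165-nt version it was 69.2%, 80.9%, 76.6% and 65.9% in that order. For both versions the Ptbp1 knockdown was the highest library and the double knockdown the lowest, the opposite of their order at the 110-nt exon. The double knockdown differed from the Ptbp1 knockdown by -12.1 points for the 66-nt version (-18.3 to -5.83) and by -15.0 points for the 165-nt version (-23.7 to -5.83), both short of the 20 points needed to be counted. The trios of both versions have the same upstream junction and skip the same exon, so they are not independent. Reads across that junction can come from either version, so neither value is the share of transcripts with that version. The choice between the 5′ splice sites changed little, the longer form having 25.2%, 29.3%, 31.5% and 29.5% of reads in control and under Ptbp1, Ptbp2 and double knockdown, with overlapping intervals (17.8 to 34.4 in control). A 3′ splice site 9 nt apart had its longer form in 83.6%, 80.8%, 92.7% and 89.8% of reads, on 55 to 108 reads a library.

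Dlg1 was lower than control in all 3 knockdowns by both measures. It stood at 29.5 FPKM in control (28.7 to 30.3), 25.1 under Ptbp1 knockdown (24.3 to 26.0), 23.2 under Ptbp2 knockdown (22.2 to 24.3) and 22.1 under double knockdown (21.2 to 23.0). Control was the highest library, and the Ptbp2 and double knockdowns, the lowest pair, overlapped. By exon reads it stood at 168, 127, 125 and 120 CPM. The log2 differences from control were -0.22, -0.33 and -0.40 by FPKM and -0.40, -0.43 and -0.48 by exon reads, and intervals that lay apart and lower were found in 27.8%, 31.7% and 27.5% of genes measured in the same comparisons. Of 26 Dlg1 exons with at least 50 control reads, 26 were below control under Ptbp1 knockdown, 26 under Ptbp2 knockdown and 25 under double knockdown, with median ratios of 0.733, 0.748 and 0.724.

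The 36-nt exon was the 1 alternative exon of Dlg1 whose difference from control had an interval that excluded 0. It lies between the exons that encode the SH3 and guanylate kinase-like domains, where Dlg1 has a run of short alternative exons. In its own trio no skipping reads were recorded in any library, beside 10 to 29 inclusion reads, with neighbours of 42 and 51 nt. Its use was therefore taken from reads that enter the 51-nt exon, either from the 36-nt exon or from the 42-nt exon before it, in 2 other trios of nearly equal size, a measure chosen after the data had been seen. Transcripts that lack both of these exons do not enter this share. Control had 74 reads from the 36-nt exon and 338 from the 42-nt exon, a share of 18.0% (95% Wilson interval 14.6 to 22.0). The Ptbp1 knockdown had 83 and 182 reads, a share of 31.3% (26.0 to 37.1). The Ptbp2 knockdown had 52 and 256, or 16.9% (13.1 to 21.5), and the double knockdown had 96 and 232, or 29.3% (24.6 to 34.4).

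Both libraries with depleted Ptbp1 were therefore higher, and the 2 not given shptbp1 overlapped. The share was 13.4 points above control under Ptbp1 knockdown (6.73 to 20.1) and 11.3 points above it under double knockdown (5.17 to 17.5), while the Ptbp2 knockdown differed by -1.08 points (-6.57 to 4.63). The double knockdown differed from the Ptbp1 knockdown by -2.05 points (-9.51 to 5.32). The Dlg4 exon in contrast differed by 15.1 points there.

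The other alternative exons of Dlg1 were included at low levels or on few reads. The 99-nt exon, near the 5′ end of the gene, stood at 10.4% in control (7.78 to 13.8), 14.2% under Ptbp1 knockdown (10.3 to 19.3), 15.0% under Ptbp2 knockdown (11.0 to 20.1) and 15.1% under double knockdown (11.6 to 19.4). The intervals of all 4 libraries overlapped. A 97-nt exon (chr16:31846923-31847019, plus strand, mm9), found in 1 annotated transcript that is not coding, stood at 35.8%, 49.4%, 52.6% and 54.3% in its own trio, with a control interval from 24.9 to 49.6. In that trio the skipping junction, from the 70-nt exon to the 34-nt exon, had 35, 20, 18 and 24 reads, whereas the trio around the 34-nt exon gave the same junction 290, 176, 196 and 194 reads. The level of inclusion of the 97-nt exon therefore rests on the reads that fitted its trio, and it is given as the trio's value only. A 5′ splice site 45 nt apart had its longer form in 59.2%, 64.1%, 51.1% and 62.3% of reads, and a 3′ splice site 3 nt apart in 69.1%, 73.8%, 75.0% and 61.2%, with overlapping intervals.

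Dlg5 and Dlg3 were the less abundant members. Dlg5 stood at 4.78 FPKM in control (4.41 to 5.16), 3.98 under Ptbp1 knockdown (3.01 to 4.94), 3.02 under Ptbp2 knockdown (2.16 to 3.89) and 3.90 under double knockdown (3.37 to 4.43). By exon reads it stood at 39.2, 42.3, 33.5 and 40.0 CPM. The Ptbp2 knockdown was the lowest library in both measures, with log2 differences from control of -0.52 and -0.22, whereas the sign under Ptbp1 and double knockdown differed between the measures. With a single divisor for all libraries, which moved the median of all genes by 0.36 under double knockdown, the FPKM difference there became 0.07 for Dlg5 and -0.03 for Dlg1. Intervals that lay apart and lower, as those of Dlg5 did under Ptbp2 knockdown, were found in 31.7% of genes measured there.

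A 93-nt coding exon of Dlg5 (chr14:24979467-24979559, minus strand, mm9) was included in 95.8%, 100%, 91.3% and 98.2% of transcripts in control and under Ptbp1, Ptbp2 and double knockdown, with 2, 0, 4 and 1 skipping reads. A 144-nt coding exon (chr14:25010370-25010513, the same strand) was at 90.0%, 95.2%, 82.5% and 95.5%, with 4, 2, 7 and 2 skipping reads. Inclusion of both was lowest under Ptbp2 knockdown, and the difference between the Ptbp1 and Ptbp2 knockdowns was 8.70 points for the 93-nt exon (0.035 to 20.3) and 12.7 points for the 144-nt exon (-1.34 to 27.6). A 5′ splice site 15 nt apart had its longer form in 5.88% to 15.1% of reads.

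Dlg3 stood at 0.789 FPKM in control (0.538 to 1.04), 0.922 under Ptbp1 knockdown (0.549 to 1.29), 0.580 under Ptbp2 knockdown (0.321 to 0.840) and 0.805 under double knockdown (0.527 to 1.08). All 4 intervals overlapped, and Dlg3 lay under the 3 FPKM needed to be measured. Its exon reads numbered 665, 551, 340 and 509, or 4.37, 3.99, 2.38 and 3.12 CPM. In these reads the Ptbp2 knockdown (95% Poisson interval 2.13 to 2.65 CPM) lay below control (4.05 to 4.72), with a log2 difference of -0.85 against -0.18 by FPKM. These Poisson intervals are too narrow, because a read across a junction counts for both exons it joins. None of the 21 cassette exons of Dlg3 reached 20 junction reads in all 4 libraries, with the 2 inclusion junctions averaged as above. No inclusion is therefore given for them. Its shortest cassette exon, of 42 nt, is joined from an exon of 100 nt or one of 46 nt, and was singled out after its reads had been seen. In the trios centred on the 42-nt exon, reads from the 100-nt exon numbered 21 in control, 3 under Ptbp1 knockdown, 10 under Ptbp2 knockdown and 1 under double knockdown. Reads from the 46-nt exon numbered 1, 2, 0 and 8 in that order. Reads of a junction are counted per trio, and in the trios centred on the exon before, the same junctions had 10, 1, 7 and 2 reads from the 100-nt exon and 0 in every library from the 46-nt exon. Reads from the 100-nt exon were thus fewer in both libraries given shptbp1, and those from the 46-nt exon are too few and differ too much between trios to be read.

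Most exons of the family varied little in their own trios. Of the 101 cassette exons, 28 of 29 in Dlg1, 20 of 20 in Dlg4, 30 of 31 in Dlg5 and 0 of 21 in Dlg3 were measured. Seen over those 78, 7 had inclusion between 5% and 95% in at least 1 library and are described above. In those trios, the other 71 stood between 95.3% and 100% in every library, with differences between libraries of at most 4 points. A trio can miss the choice between versions of an exon. The 71 include the versions 45 nt apart in Dlg1 and 9 nt apart in Dlg4, whose shares are given above. They also include a 100-nt version of the Dlg1 97-nt exon, with 48 control reads beside 623 on the 70-nt exon before it.

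The genes around the family are read against the shares of all genes counted, 2.09% under Ptbp1, 2.53% under Ptbp2 and 2.22% under double knockdown. With lists this short, a count of 0 or 1 cannot be set apart from those shares. Of 15 named relatives with 1 or more of the same kinds of domain, 10 were measured under Ptbp1 knockdown and 11 under the others. The 1 counted was Mpp1, at 4.97 FPKM in control and listed at 0 under Ptbp2 knockdown. Its exon reads differed there by -0.77 on the log2 scale. The medians of the log2 differences of the relatives were -0.04, -0.16 and -0.15 under Ptbp1, Ptbp2 and double knockdown, beside 0.04, 0.01 and 0.07 over all genes measured. Dlg2, the closest relative of Dlg4 outside the 4 genes, stood at 4.43, 5.38, 2.74 and 4.63 FPKM and at 17.5, 26.0, 8.90 and 15.6 CPM in control and under Ptbp1, Ptbp2 and double knockdown. It was highest under Ptbp1 knockdown and lowest under Ptbp2 knockdown in both measures.

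Of 18 named partners of the postsynaptic density, 7 were measured and 1 was counted, as higher under both Ptbp1 and double knockdown, the exchange factor Iqsec2, at 3.58, 11.6 and 8.49 FPKM in control, Ptbp1 and double knockdown. Its exon reads differed from control by 0.30 and -0.05 on the log2 scale, so the FPKM difference was not seen in them. The 7 had median log2 differences of -0.11, 0.25 and 0.15. Of 23 named receptors, channels and adhesion proteins that discs large proteins bind, 4 were abundant enough to be measured, and 0 were counted. These were the NMDA receptor subunit Grin1, the adhesion proteins Nlgn2 and Nrxn2 and the calcium pump Atp2b4. Their 4 FPKM values were all above control under Ptbp1 knockdown (median log2 difference 0.72) and the double knockdown (0.33). All were below it under Ptbp2 knockdown (-0.46), and over all genes measured the medians were 0.04, 0.07 and 0.01 in that order. These comparisons share the control library, and 4 genes are too few to be read as a pattern. Exon reads gave the same signs. Under double knockdown their log2 differences were small, at 0.09, 0.03, 0.24 and 0.14 in the order named. Grin1 stood at 6.82 FPKM in control, 13.0 under Ptbp1 knockdown, 3.52 under Ptbp2 knockdown and 8.20 under double knockdown.

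Of 15 named partners in cell polarity, 10 or 11 were measured, and of 7 enzymes that add or remove the palmitate anchor of PSD-95, 6 were measured. Among these 0 were counted in any knockdown, with medians of 0.11, 0.12 and 0.16 for the former and -0.12, -0.10 and -0.07 for the latter. The count was also 0 for 11 named factors of nonsense-mediated decay, all measured, whose median log2 differences were -0.08, 0.14 and 0.01. Upf1, the helicase of that pathway, stood at 27.8, 26.2, 29.4 and 25.3 FPKM in control and under Ptbp1, Ptbp2 and double knockdown.

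The exons closest to the Dlg4 exon in inclusion over the 4 libraries, out of 98399 compared by Euclidean distance in percentage points, were those of Tnik (24 nt, distance 12.0), Clip2 (105 nt, 15.0), Unc13a (30 nt, 15.2), Exoc7 (93 nt, 15.6) and Rubcn (45 nt, 15.8). The Tnik exon stood at 37.1%, 70.7%, 32.1% and 83.7% in control and under Ptbp1, Ptbp2 and double knockdown. In the Clip2 exon the corresponding shares were 38.0%, 68.5%, 17.5% and 93.4%. The lengths of all 5 are multiples of 3, whereas that of the Dlg4 exon is not. In gene level, the 3 log2 differences from control most like those of Dlg4 among 6839 genes were found in Rsbn1, Dcaf11 and Dnajc7, at distances of 0.02 to 0.04. These likenesses are over the same 4 libraries, with control in every difference, and are descriptions. The nearest to Dlg1 were Wdr11, Kifap3 and Tasp1, to Dlg3 Stau1, Vps52 and Fdx1, and to Dlg5 Selenof, Vps35 and Ctnnb1.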

How the data were processed

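Per the labels' protocols, strand-specific poly(A) libraries were sequenced as 100-base read pairs. CASAVA, TopHat, Cufflinks and mm9 are named per the submitters' processing notes, and their versions are not given in the sources used here. The authors deposited FPKM with 95% intervals for transcripts assembled separately in each library. These FPKM lack the usual scale, so each library was divided here by its sum of FPKM times length. Per the file headers, the same tables hold a coverage signal per transcript, and the deposited transcript files hold a score that was not used beyond its coordinates. The deposited SpliceTrap tables give, per the file headers, an inclusion ratio (a fraction of transcripts with the middle exon), counts of junction reads, and exon coverage, which was turned back into reads.

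Gene symbols came from RefSeq identifiers, of which 95.9% matched, and 94.0% of 218362 cassette trios were named by splice sites. Junction inclusion divided the mean count of the 2 inclusion junctions by the sum of that mean and the skipping count. Reads are not counted with molecular identifiers, so intervals (Wilson, Newcombe, Poisson) cover counting error at most. A read across a junction counts for both exons it joins, so the Poisson intervals on summed exon reads are too narrow even for that. A junction is counted in each trio by the reads that fit there. Where a gene was compared by exon reads, CPM had a pseudocount of 0.1. Named exons had at least 20 junction reads (the sum that inclusion is divided by) in all 4 libraries and inclusion between 5% and 95% in 1 or more. The 5 nearest exons and 3 nearest genes were named by distance, and list members when counted. With 1 library per group no test was run. The counting rules were tested on simulated data with changes larger than both limits and with the 2 exon measures set equal. Those data cannot show how the rules act near their limits or where the measures differ. The genes, lists and rules were chosen with earlier results of these data known. Alternatives covered pseudocounts, scaling, filters, exon reads in place of FPKM, SpliceTrap ratios and assembled transcripts, and 2 were added after seeing the data: exon reads without the 110-nt exon, and junctions of other trios for the Dlg1 36-nt exon. Python 3.11.15, pandas 2.3.3, numpy 2.4.6, scipy 1.17.1 and matplotlib 3.10.9 were used. Sequences of introns were not used here.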

Additional observations from a re-analysis of the deposited data

Results flagged for a closer look

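Inclusion of the Dlg4 110-nt exon differed in opposite directions between the 2 pairs of libraries that differ by the Ptbp2 shRNA. Against control, the Ptbp2 knockdown differed by -21.0 percentage points in inclusion, and against the Ptbp1 knockdown, the double knockdown differed by 15.1 points. Each direction rests on 1 library against 1, so the difference between them was not tested. Ptbp1 RNA differed within both pairs as well, at 119% of control under Ptbp2 knockdown. It was at 36.8 FPKM under double knockdown against 55.4 FPKM under Ptbp1 knockdown, and its part was not tested. Ptbp3 RNA was at 66.5% of control under Ptbp2 knockdown, and its FPKM intervals overlapped between the Ptbp1 and double knockdowns. The part of Ptbp3 was not tested either.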

How the results depend on the processing

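No paired analysis was possible because each group held 1 library, and for the same reason no library could be left out. Inclusion of the Dlg4 110-nt exon kept its direction under the alternatives run. With the upstream inclusion junction alone, the Ptbp2 knockdown differed from control by -17.1 points, short of the 20 points needed to be counted, against -21.0. The other alternatives (SpliceTrap ratio, downstream junction alone, at least 10 or 50 junction reads) left it on the same side of that limit in all comparisons. Of the alternative values for the main results, 98 stayed within their limits, 6 moved and 2 reversed. The 2 reversed with assembled transcripts, which put the Dlg4 level under Ptbp2 knockdown at 0.073 with the exon and at -0.24 without it (log2 differences from control), against the opposite signs from gene FPKM times inclusion or skipping. The cause was not tested. The Dlg4 difference under Ptbp1 knockdown moved from 0.13 to 0.47 with exon reads and to 0.46 with exon reads without the 110-nt exon, and that under double knockdown moved from 0.36 to 0.73 with a single divisor for all libraries. That divisor shifted the median of all genes by -0.17 under Ptbp1 knockdown and by 0.36 under double knockdown. With the same divisor, the Dlg4 difference became -0.04 under Ptbp1 knockdown and -0.004 under Ptbp2 knockdown, against 0.13 and 0.008. These changes of sign near 0 stayed within their limits. Lowering the exon limit to 10 points gave 3 Dlg exons counted under Ptbp1 knockdown, 2 under Ptbp2 knockdown and 2 under double knockdown, each in place of 1. Genes counted under Ptbp1 knockdown (141) became 214 and 53 with pseudocounts of 0.1 and 5, 82 with at least 10 FPKM and 396 by exon reads. Those under Ptbp2 knockdown (166) became 54 with a pseudocount of 5 and 284 by exon reads. Those under double knockdown (148) became 225 and 67 with those pseudocounts, 384 with a single divisor and 302 by exon reads. Depth limits Dlg3, which had no measured exon, the Dlg5 exons, which had 7 or fewer skipping reads a library, and the 97-nt exon of Dlg1, which had 18 to 35.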
